A study of Mus musculus with 8 samples.

Results

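The cytosolic ribosomal protein genes are the genes whose products, with ribosomal RNA, make up the ribosome of the cytoplasm. They were chosen by name alone: symbols of the form Rpl or Rps followed by a number and, for some, a short suffix, together with Rplp0, Rplp1, Rplp2 and Rpsa. The rule found 84 of 23343 gene symbols, of which 77 are the canonical genes (31 of the small subunit and 46 of the large subunit) and 7 are paralogs, namely Rpl10l, Rpl22l1, Rpl39l, Rpl3l, Rpl7l1, Rps27l and Rps4y2. Counts allowed 83 of them to be tested, among 14907 genes tested in all. Rpl3l, at 0 to 14 counts in a library, was not tested. Fau, Rpl36al and Gnb2l1, which also encode ribosomal proteins or parts of the ribosome, lie outside the name rule, and none of them passed the test in any comparison.

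RNA-seq was made from testis cells of C57BL/6 mice at postnatal day 7, sorted as Thy1+ or cKit+ spermatogonia, from animals labelled PRC1ctrl (control here) or PRC1dKO (dKO here). PRC1 is Polycomb repressive complex 1, a chromatin regulator. Each of the 4 groups (Thy1 control, Thy1 dKO, cKit control, cKit dKO) had 2 libraries, with 6763908 to 10976869 counts each. The labels do not name the deleted genes, the control alleles or any Cre driver, and do not say whether the 2 libraries of a group came from different animals, so the p-values measure the spread between these samples, which may be technical. For Rnf2 and Ring1, the catalytic subunits of PRC1, neither dKO comparison passed (Rnf2 at 103 to 146 CPM over the 8 libraries, Ring1 at 2.59 to 12.01), so gene-level counts do not check the dKO labels. Thy1 was at 12.8 to 26.0 CPM in the Thy1 libraries and 0 to 1.28 CPM in the cKit libraries, and Kit at 281 to 317 and 938 to 1059 CPM. CPM are counts relative to library size after TMM scaling, a correction for library makeup. The record numbers in the labels form one run for the 4 Thy1 libraries and another for 3 of the cKit libraries, and cKit control replicate 1 lies outside both, so population and record run cannot be told apart.

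In sorted spermatogonia some RNA came from other testis cells. The summed level of 12 peritubular and stromal markers was 11686 to 15052 CPM in the Thy1 libraries and 3333 to 6800 CPM in the cKit libraries, and that of 8 Leydig markers was 2557 to 4196 and 11056 to 18039 CPM. The 28 germ cell genes summed to 3302 to 4588 CPM in the Thy1 libraries, 3677 and 2926 CPM in cKit control, and 871 and 1234 CPM in cKit dKO. In such bulk samples fewer cells of a type and less RNA per cell cannot be told apart.

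Ribosomal proteins are built into ribosomes in fixed proportions, and their genes are known for being expressed together at high levels in growing cells. Their mRNAs commonly begin with a run of pyrimidines at the cap, the 5′ terminal oligopyrimidine (TOP) motif, through which mTOR signalling controls their translation. In the male germ line, autosomal paralogs such as Rpl10l and Rpl39l are known to be expressed beside or in place of their X-linked parent genes Rpl10 and Rpl39, since the X chromosome is silenced in meiosis.

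The sequences around the annotated transcription start are shown for the 2 paralog pairs whose balance moved most and for 2 canonical genes that differed between populations, Rpl15 (the largest fall in control and in dKO) and Rpl13a (the largest rise in dKO). Each window runs from 40 bases before the start to 20 bases from the start on, 5′ to 3′ on the gene's strand, from RefSeq (GRCm38.p6), and capitals mark runs of 7 or more pyrimidines (C or T).
Rpl39: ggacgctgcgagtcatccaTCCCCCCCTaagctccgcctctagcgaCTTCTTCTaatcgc
Rpl39l: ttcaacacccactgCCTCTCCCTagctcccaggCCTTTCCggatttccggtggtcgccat
Rpl10: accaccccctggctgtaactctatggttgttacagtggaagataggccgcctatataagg
Rpl10l: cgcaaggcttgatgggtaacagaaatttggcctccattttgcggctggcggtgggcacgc
Rpl15: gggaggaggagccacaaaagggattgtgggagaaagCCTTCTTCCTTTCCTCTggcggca
Rpl13a: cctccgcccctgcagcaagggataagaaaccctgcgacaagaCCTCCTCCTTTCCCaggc
They lie at chrX:37085203-37085262 (minus strand), chr16:10170188-10170247 (plus), chrX:74270776-74270835 (plus), chr12:66284382-66284441 (minus), chr14:18270967-18271026 (minus) and chr7:45128726-45128785 (minus), in that order. Rpl15 carries an unbroken pyrimidine run of 17 bases that crosses the start and Rpl13a one of 14 bases just after it, the Rpl39 and Rpl39l windows hold 2 shorter runs each, and the Rpl10 and Rpl10l windows hold none. The RefSeq start of Rpl39 lies 38 bases from the start in the deposited table, and the other 5 coincide. RefSeq windows were found for 63 of the 84 members. A pyrimidine run of at least 7 bases on the gene's strand was present in 35 of 57 canonical windows (61.4%) and 4 of 6 paralog windows, against 35.4% of 27025 genes, while a purine run of that length, which is the same motif on the opposite strand, was present in 24.6% against 36.3%. A match is a description of these letters only.

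Together the members held between 1.52% and 1.70% of each library's counts. The shares were 1.70% and 1.62% in Thy1 control, 1.56% and 1.59% in Thy1 dKO, 1.52% and 1.66% in cKit control and 1.56% and 1.61% in cKit dKO, so that the 4 groups overlapped in part and the 2 cKit control libraries differed by more than the group means did. As summed CPM the members stood at 16544 and 15889, 15382 and 15398, 14494 and 16667, and 16902 and 17182 in the same order, and on this scale the 2 cKit dKO libraries were the highest. Large subunit genes held 1.33 to 1.42 times the summed CPM of small subunit genes in every library. The precursor of ribosomal RNA, Rn45s, held between 8.42% and 13.6% of counts, least in cKit control replicate 1, and was higher in cKit dKO than in cKit control (log2 0.42 ± 0.12 SE, edgeR adjusted p = 0.018). With Rn45s left out of the totals, the members held 1.95% and 1.87% in Thy1 control and 1.79% and 1.78% in Thy1 dKO. In cKit control they then held 1.66% and 1.88%, and in cKit dKO 1.79% and 1.83%. The part of Rn45s in these shares was not tested.

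Levels per transcript length, as RPKM deposited by the authors (reads scaled by transcript length and library size), spanned the canonical genes widely. Rpl4, a large subunit protein whose loop lines the exit tunnel, was highest with a mean of 218 RPKM over the 8 libraries (182 to 261). Rpl41, the shortest ribosomal protein, was at 163 and Rpl12 at 154 RPKM. Rpl4 was the highest canonical gene in each of the 8 libraries, whereas the order of Rpl41 and Rpl12 differed between libraries and is not resolved. The paralogs lay at or near the bottom, with Rps27l at 20.1, Rpl22l1 at 18.1, Rpl39l at 5.29, Rps4y2 at 4.53, Rpl10l at 3.31, Rpl7l1 at 2.97 and Rpl3l at 0.128 RPKM. The median canonical gene was at 63.5 to 80.0 RPKM in a library, and the rank order of the 77 genes correlated between any 2 libraries with a Spearman coefficient of 0.922 to 0.988, as a description across genes that share libraries and lengths.

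**Figure D1:**
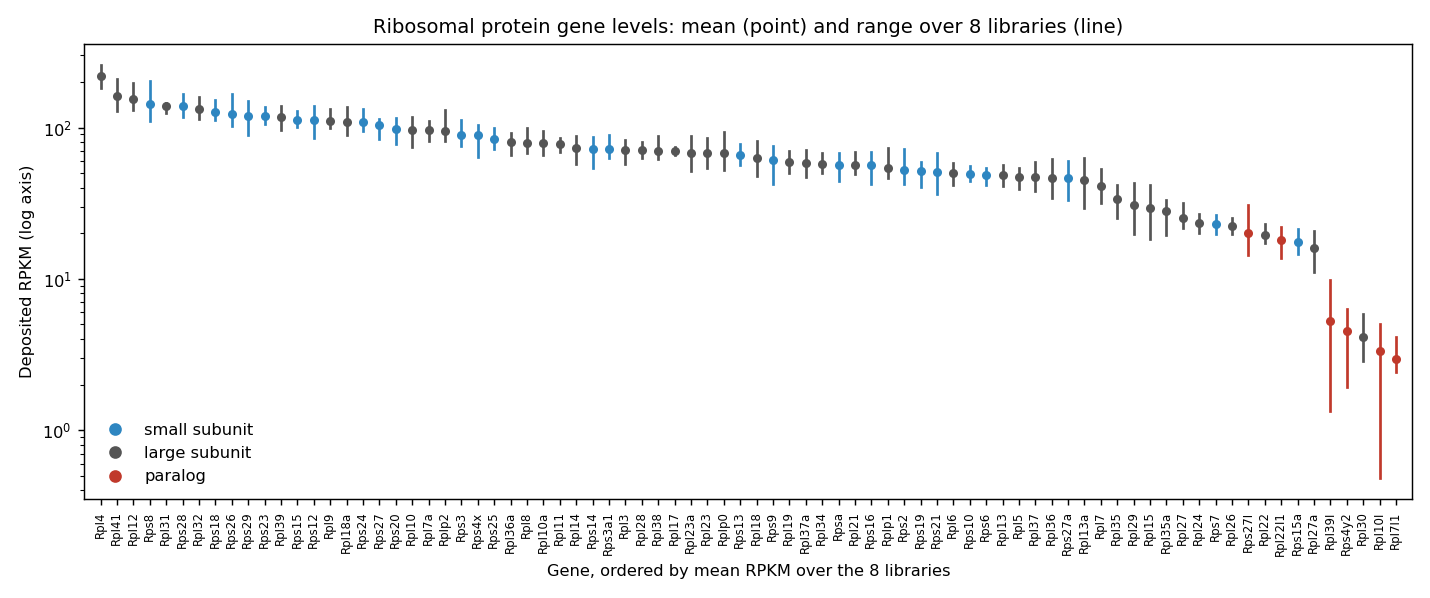
Deposited RPKM of ribosomal protein genes on a log axis, with the mean over 8 libraries as a point and the lowest to highest library as a line, for 80 of the 84 members. Rpl3l, which was at 0 in 2 libraries, is among those not drawn. Rpl4 leads with 218 RPKM, and 4 paralogs and Rpl30 lie near 3 to 5 RPKM, below the other canonical genes.

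One canonical gene, Rpl30 of the large subunit, was far below the rest. It had only 41 to 81 counts in a library (mean 4.11 RPKM), while the entry Gm12191, which overlaps it on the same strand, had 1074 to 2349. With both entries added, Rpl30 stood at 98.0 to 153 RPKM and its change in cKit dKO was 0.01 ± 0.12 (SE) in place of 0.79 ± 0.36, neither past the test. Rpl26 carried counts identical to those of the entry Gm15772. Rpl30 and Rpl26 were picked out after their values were seen. Of the 84 members, 36 overlap another symbol in the table and 22 of these contain a small nucleolar RNA gene. Ribosomal protein genes also have many processed pseudogenes: of the 50-base words in canonical transcripts, a median of 53.3% (0% to 95.1%) also occurred in another annotated gene, against 0% for Rpl39l, 7.60% for Rpl10l and 14.9% for Rps4y2. How the authors counted reads that match several places is not given in the sources used here, so canonical levels are less certain than those of these paralogs.

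The largest changes were in paralogs. In cKit+ cells labelled dKO, Rpl39l, Rpl10l and Rps4y2 fell, while the X-linked parents Rpl39 and Rps4x rose. The members called in this comparison were 16 of 83, with 11 higher and 5 lower (19.3%), against 28.6% of all genes tested (13.2% higher and 15.4% lower). Of the canonical genes 16.9% were called. The share was 45.5% among the 4809 genes in the mean level range of canonical genes other than Rpl30, a range not drawn from the paralogs. The 3 paralogs were 3 of the 5 that fell.

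Rpl39l, the autosomal paralog of the exit tunnel protein Rpl39 (chromosome 16, 10170228 to 10174911, mm10, 3 exons), had 22.1 and 20.1 CPM in Thy1 control, 12.7 and 13.5 in Thy1 dKO, 22.7 and 13.8 in cKit control, and 4.48 and 3.92 in cKit dKO. Both cKit dKO libraries were lower than every other library. The change in cKit dKO was -2.12 ± 0.30 on the log2 scale (SE; 95% interval -2.77 to -1.48; edgeR adjusted p = 1.4e-04). It passed in 20 of 21 other settings, including each of the 8 fits that left out 1 library, where it ran from -2.38 to -1.71. In Thy1 dKO both libraries were again below both controls, but the change of -0.69 ± 0.27 (95% interval -1.25 to -0.12) did not pass (edgeR adjusted p = 0.25). A fit of only the 4 Thy1 libraries did call Rpl39l lower. The difference between the dKO effects in the 2 populations was -1.44 ± 0.41 (edgeR adjusted p = 0.049), the only member called there (0 higher and 1 lower, or 1.20% of members, against 5.92% of all genes tested, 1.86% higher and 4.06% lower), and it passed in only 8 of 20 other settings and in 1 of 8 fits that left out 1 library.

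Rpl39 itself (chromosome X, 37082520 to 37085184, 3 exons) was at 137 and 140 CPM in Thy1 control, 156 and 166 in Thy1 dKO, 132 and 143 in cKit control, and 204 and 199 in cKit dKO. The 2 cKit dKO libraries were the highest of the 8. The change in cKit dKO was 0.55 ± 0.11 (edgeR adjusted p = 0.0018), the largest rise among the members that passed, and it held in all 8 fits that left out 1 library but not on the deposited RPKM (0.20, limma adjusted p = 0.19 with a pseudocount of 1).

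Rpl10l, the single-exon paralog of Rpl10 (chromosome 12, 66283379 to 66284401), stood at 13.0 and 14.9 CPM in Thy1 control, 18.1 and 15.4 in Thy1 dKO, 11.2 and 11.4 in cKit control, and 1.92 and 5.96 in cKit dKO. The cKit dKO libraries were again the lowest, though they were far apart from each other. The change was -1.51 ± 0.38 (edgeR adjusted p = 0.0085), and it missed the threshold without cKit dKO replicate 1 (-0.87, edgeR adjusted p = 0.067). Rpl10, a late-joining protein near the peptidyl transferase centre (chromosome X, 74270816 to 74273135), had 302 and 278, 293 and 335, 194 and 215, and 231 and 276 CPM in the same order of groups. Its cKit dKO libraries lay above cKit control, and the change of 0.31 (95% interval 0.05 to 0.57) did not pass (edgeR adjusted p = 0.07).

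Rps4y2 (chromosome 6, 148354656 to 148355596) is a single-exon entry that RefSeq lists as Rps4l, a transcribed pseudogene. It had 16.6 and 18.7 CPM in Thy1 control, 14.2 and 12.8 in Thy1 dKO, 16.6 and 18.2 in cKit control, and 7.04 and 10.8 in cKit dKO. The cKit dKO libraries were below all others, and the change was -0.96 ± 0.27 (edgeR adjusted p = 0.014). Leaving out cKit dKO replicate 1 ended the call (-0.64, edgeR adjusted p = 0.11), as did leaving out cKit control replicate 2 (-0.85, edgeR adjusted p = 0.067). The entry overlaps Tmtc1 on the opposite strand and the strand setting of the counting is not given, so their reads cannot be told apart. Tmtc1 changed by -0.06 ± 0.22 in cKit dKO, which did not pass. The parent of Rps4y2, Rps4x, an X-linked small subunit protein (chromosome X, 102184943 to 102188371), had 272 and 206, 273 and 309, 225 and 235, and 315 and 335 CPM. Rps4x rose by 0.50 ± 0.13 in cKit dKO (edgeR adjusted p = 0.0097). That call was lost with library totals, on the deposited RPKM with either pseudocount and without cKit control replicate 1. The lowest change over the settings was 0.15. Over the 8 fits that left out 1 library the change ran from 0.47 to 0.59.

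Ratios of a paralog to its parent within a library do not depend on how libraries are scaled. In cKit dKO the count ratio of Rpl39l to Rpl39 was lower by 2.63 on the log2 scale than in cKit control (6.17-fold), that of Rpl10l to Rpl10 by 2.04 (4.12-fold) and that of Rps4y2 to Rps4x by 1.496 (2.82-fold). For all 3 pairs both dKO libraries lay below both controls. With 2 libraries against 2 the two-sided exact permutation test cannot go below p = 0.333, which each pair reached (0.666 after Benjamini-Hochberg adjustment over the 24 ratios tested). By RPKM, Rpl39l made up 7.31% and 6.56% of its pair in Thy1 control, 3.83% in both Thy1 dKO libraries, 7.76% and 4.50% in cKit control, and 1.06% and 0.957% in cKit dKO. In Thy1 dKO the log2 ratio was 0.90 below control for Rpl39l and 0.68 below for Rps4y2, with groups apart, and 0.15 above for Rpl10l, with groups that overlapped. The other paralog ratios moved less in cKit dKO: Rps27l to Rps27 was lower by 0.71 with groups apart, while Rpl22l1 to Rpl22 (0.04) and Rpl7l1 to Rpl7 (-0.18) overlapped.

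**Figure D2:**
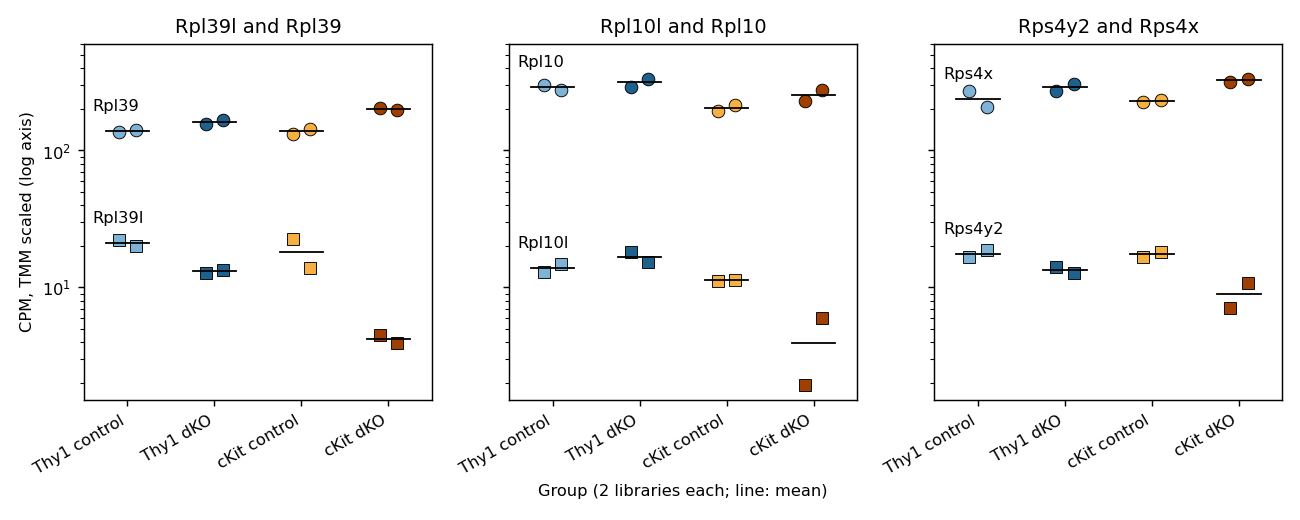
CPM on a log axis in each of 8 libraries for Rpl39l, Rpl10l and Rps4y2 (squares) and their parents (circles), by group, with a line at the mean of the 2 libraries. The squares drop in cKit dKO, to 4.48 and 3.92 CPM for Rpl39l, while the circles of Rpl39 and Rps4x are at their highest there.

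Beside these paralogs 25 of 28 germ cell genes fell in cKit dKO (median log2 change of the list -1.66), and none rose. Over the same libraries 9 of 12 peritubular and stromal, 5 of 14 Sertoli, 5 of 8 Leydig, 4 of 9 endothelial and 2 of 6 mast cell markers rose, and none of 9 macrophage markers passed. Of all genes tested 28.6% passed there, 13.2% higher and 15.4% lower. The Sertoli and mast cell shares called, 35.7% and 33.3%, were nearest to that 28.6%. One Leydig marker, the steroidogenic enzyme Cyp17a1, fell (-0.72, edgeR adjusted p = 0.039). Summed peritubular and stromal markers went from 3377 and 3333 to 6800 and 5412 CPM, and Sertoli markers from 923 and 999 to 1396 and 1429 CPM. Of all these markers only Cd163 (macrophage, in cKit control) and Fcer1a (mast cell, in cKit control and dKO) were at 0 in both libraries of a cKit group. When libraries were scaled to the germ cell genes in place of all genes, Rpl39l was at -0.41 (edgeR adjusted p = 0.34), Rps4y2 at 0.66 and Rpl10l at 0.07 in cKit dKO, none past the test. That scaling rests on a list of which 25 of 28 genes fell in these same libraries. It moved the median of all genes to 1.70, with 83.3% called, so it is no test of germ cell content. The part of germ cell content in the paralogs' levels was not tested.

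All 77 canonical genes lay within 1 log2 unit of 0 in every comparison. In cKit dKO 11 of 77 were higher and 2 lower (16.9%), the median log2 change was 0.17 against 0.03 for all genes tested, and 74 of 77 lay within 0.5 of 0. How many were called depended on the scaling: with library totals in place of TMM 2 members were higher and 8 lower with a canonical median of 0.04, with DESeq2's size factors in edgeR 19 and 4, with germ cell scaling 80 and 0 with a median of 1.83, and on the deposited RPKM 0 and 17 with a median of -0.17. These scalings moved the median of all genes in cKit dKO to -0.11, 0.08, 1.70 and -0.22, and called 28.7%, 29.1%, 83.3% and 35.8% of all genes against 12%, 27.7%, 96.4% and 20.5% of the members. The factor behind the deposited RPKM was not in step with the count totals: relative to Thy1 control replicate 1, counts per unit of that factor were 1.14 and 1.11 in cKit control and 0.914 to 0.999 in the other 5 libraries.

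cKit control replicate 1 decided many of these calls. It was below replicate 2 in 70 of 77 canonical genes (median log2 difference -0.21), whereas replicate 1 was below replicate 2 in 25, 38 and 41 of 77 genes in Thy1 control, Thy1 dKO and cKit dKO. Without it 1 member was higher (Rpl39) and 3 lower (Rpl39l, Rpl10l and Rps4y2) in cKit dKO (4.82%, against 15.4% of all genes), with a canonical median of 0.06. Without replicate 2, 32 were higher and 3 lower (42.2%, against 24.7%), with a median of 0.35.

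Of the large subunit, 7 of 46 canonical genes were higher in cKit dKO and 0 lower. They were Rpl39, Rpl31 (0.45, at the exit tunnel), Rpl11 (0.45), Rpl23 (0.43), Rpl9 (0.41), Rpl36a (0.35) and Rpl17 (0.32). Rpl17 kept its call in only 2 of 8 fits that left out 1 library, those without cKit control replicate 2 or cKit dKO replicate 1 (0.20 to 0.50 over the 8), and was at -0.017 on the deposited RPKM. Rpl9 lost its call without cKit control replicate 1 or cKit dKO replicate 2. Rpl11, which binds 5S ribosomal RNA and can hold Mdm2 when free, was at 119 and 150 CPM in cKit control against 186 and 181 in cKit dKO, with groups apart (edgeR adjusted p = 0.014). Its partner in the 5S particle, Rpl5, was at 314 and 312 against 320 and 290 CPM, with groups that overlapped (-0.04, 95% interval -0.26 to 0.18). Of the stalk proteins, which recruit elongation factors, Rplp0 was at -0.15, Rplp1 at 0.40 and Rplp2 at -0.23, none past the test. Rpl22 and Rpl38, which have been tied to roles in development, were at 0.03 and 0.20, neither past the test.

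Of the small subunit, 4 of 31 canonical genes were higher in cKit dKO and 2 lower. The higher ones were Rps4x, Rps9 (0.49), Rps14 (0.49) and Rps19 (0.47), the last the gene most often mutated in Diamond-Blackfan anemia. Rps19 was at 79.9 and 115 CPM in cKit control against 138 and 131 in cKit dKO, and Rps14 at 92.8 and 147.5 against 147.9 and 188, so that the groups were apart but the control pair was wide. Rps19 lost its call without cKit control replicate 1 or cKit dKO replicate 1. Rps14 kept its call in 2 of 8 fits that left out 1 library, those without cKit control replicate 2 or cKit dKO replicate 1, and ran from 0.19 to 0.90 over the 8. Rps2 was lower (166 and 174 CPM in cKit dKO against 205 and 215 in control; -0.30, edgeR adjusted p = 0.049), with groups apart, and lost its call in all 8 fits that left out 1 library. Rps6, the substrate of S6 kinases, was at 0.28 (95% interval 0.03 to 0.54) and Rpsa, the laminin receptor, at -0.12, neither past the test.

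All 4 X-linked canonical genes were above control in cKit dKO, as were 60 of all 77 canonical genes. Rpl39, Rps4x and Rpl36a passed, and Rpl10 did not (75% called, against 16.9% of canonical genes and 28.6% of all genes tested). Rpl36a (121 and 139 CPM against 174 and 158) lost its call in 6 of 8 fits that left out 1 library, all but those without cKit control replicate 2 or cKit dKO replicate 2. In Thy1 dKO none of the 4 passed, with a median of 0.16.

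**Figure D3:**
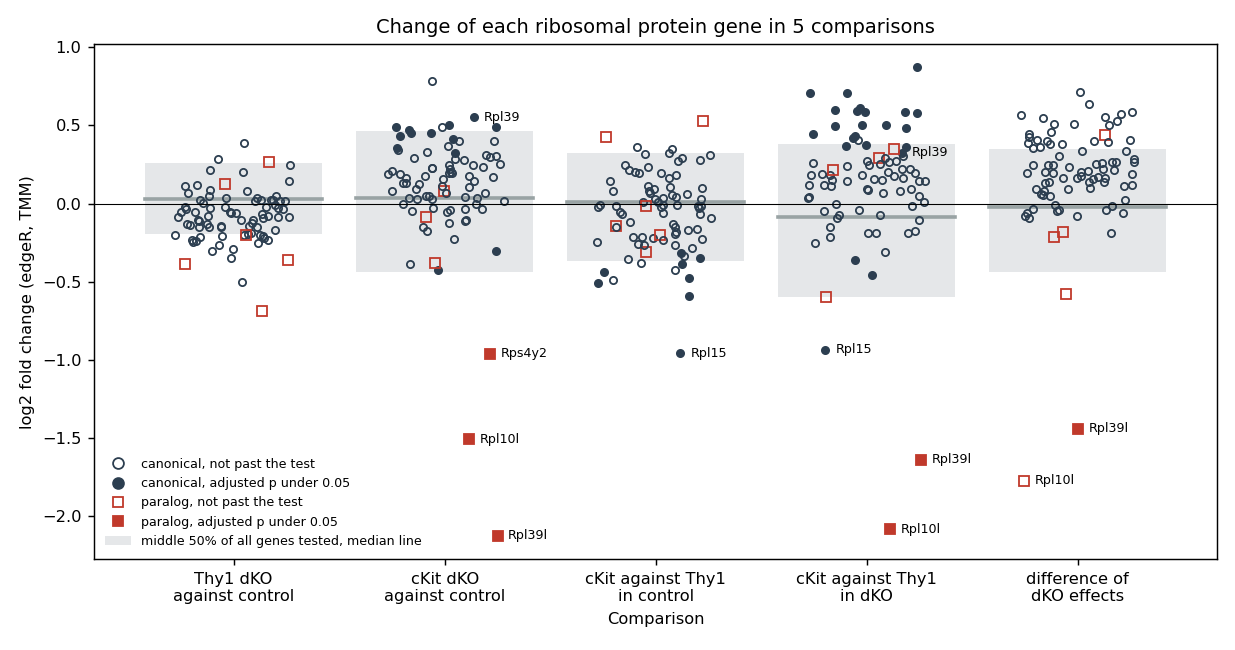
log2 fold change of each member tested in 5 comparisons (edgeR, TMM), with filled symbols for adjusted p under 0.05 and the middle 50% and median of all 14907 genes as a grey box and line. Canonical genes (circles) sit mostly inside the box, and the paralogs Rpl39l, Rpl10l and Rps4y2 (squares) sit well below it in cKit dKO.

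In Thy1 dKO no member passed the test in edgeR (0 of 83, against 0.624% of all genes tested, 0.362% higher and 0.262% lower). An unadjusted p under 0.05 was reached by 6 members (7.23%, against 13.8% of all genes), and DESeq2 called 0. A fit of only the 4 Thy1 libraries called 4 members lower (4.82%, against 6.05% of all genes in that fit). They were Rpl13a, Rpl39l, Rps21 and Rpsa. The canonical median was -0.08 against 0.03 for all genes, 54 of 77 genes lay below 0, and 76 of 77 lay within 0.5. Germ cell scaling turned the median to 0.22, and leaving out Thy1 control replicate 1 moved it to -0.022. Rps21, a small subunit protein, had the change farthest from 0 among canonical genes, with 77.1 and 78.4 CPM in control against 58.3 and 51.2 in dKO (-0.50, 95% interval -0.89 to -0.12). It was named after its value was seen.

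Between the populations, Rpl15 stood apart. This large subunit protein (chromosome 14, 18267823 to 18270986, 4 exons), had 257 and 234 CPM in Thy1 control, 245 and 255 in Thy1 dKO, 121 and 133 in cKit control, and 131 and 130 in cKit dKO. All 4 cKit libraries were below all 4 Thy1 libraries, and control and dKO overlapped within each population. The difference of cKit from Thy1 was -0.96 ± 0.11 in control (edgeR adjusted p = 1.7e-05) and -0.94 ± 0.11 in dKO (edgeR adjusted p = 1.8e-05). It passed in all 8 fits that left out 1 library in both, and with germ cell scaling was -0.55 in control (edgeR adjusted p = 0.16) and 0.84 in dKO (edgeR adjusted p = 0.0052).

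In control, 8 of 83 members were lower in cKit than in Thy1 and 0 higher (9.64%, against 19.7% of all genes tested, 10.3% lower and 9.46% higher), all of them canonical. They made up 10.4% of canonical genes, against 28.9% called among the 4809 genes in the level range of canonical genes other than Rpl30. After Rpl15 came Rpl37a (-0.59), Rpl10 (-0.51), Rpl21 (-0.48), Rpl10a (-0.44), Rpl7a (-0.39) and Rpl31 (-0.35), and 7 of the 8 belong to the large subunit. Without cKit control replicate 1 all of these 6 lost their call, and without Thy1 control replicate 1 all but Rpl21 did. Rpl31 kept its call in 3 of 8 fits that left out 1 library and Rpl7a in 5 of 8. The canonical median was -0.02 against 0.01 for all genes, and its sign turned on 1 library, with 0.07 without cKit control replicate 1 and -0.14 without replicate 2. Members called were 6 higher and 1 lower without cKit control replicate 1 (8.43%, against 14.6% of all genes), 0 and 16 without replicate 2 (19.3%, against 13%), and 0 and 2 without Thy1 control replicate 1 (2.38%, against 11%). On the deposited RPKM 13 members were higher and 1 lower (16.9%, against 27.1%), with a median of 0.22.

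In dKO, 20 of 83 members were higher in cKit than in Thy1 and 5 lower (30.1%, against 34.8% of all genes tested, 14.8% higher and 20% lower), with a canonical median of 0.18 against -0.08. Of the canonical genes 29.9% were called, against 49.9% of the 4809 genes in the level range of canonical genes other than Rpl30. With library totals 12 members were higher and 10 lower (26.5%, against 36.6% of all genes), and with germ cell scaling 81 and 0 (97.6%, against 80.7%). Without Thy1 dKO replicate 1 there were 9 and 3 (14.5%, against 20.1%) and without Thy1 dKO replicate 2 there were 8 and 4 (14.3%, against 21.6%). Rpl13a, a large subunit protein that also acts in interferon-gamma dependent silencing of translation, was at 113 and 109 CPM in Thy1 dKO and 199 and 206 in cKit dKO (0.87 ± 0.13, edgeR adjusted p = 1.3e-04). Rps27a, made as a fusion to ubiquitin, was at 84.7 and 91.6 against 140 and 149 CPM (0.71 ± 0.12). Neither pair of groups overlapped. Next were Rpl36 (0.71), Rps29 (0.61) and Rps12 (0.60), of which Rpl36 lost its call without either Thy1 dKO replicate. Rpl13a, Rpl23, Rpl23a, Rps12, Rps27a and Rps29 passed in all 21 other settings. Among the 5 lower were Rpl10l (-2.08), Rpl39l (-1.64) and Rpl15. The dKO comparisons share their libraries with those above, so their calls are not separate evidence.

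**Figure D4:**
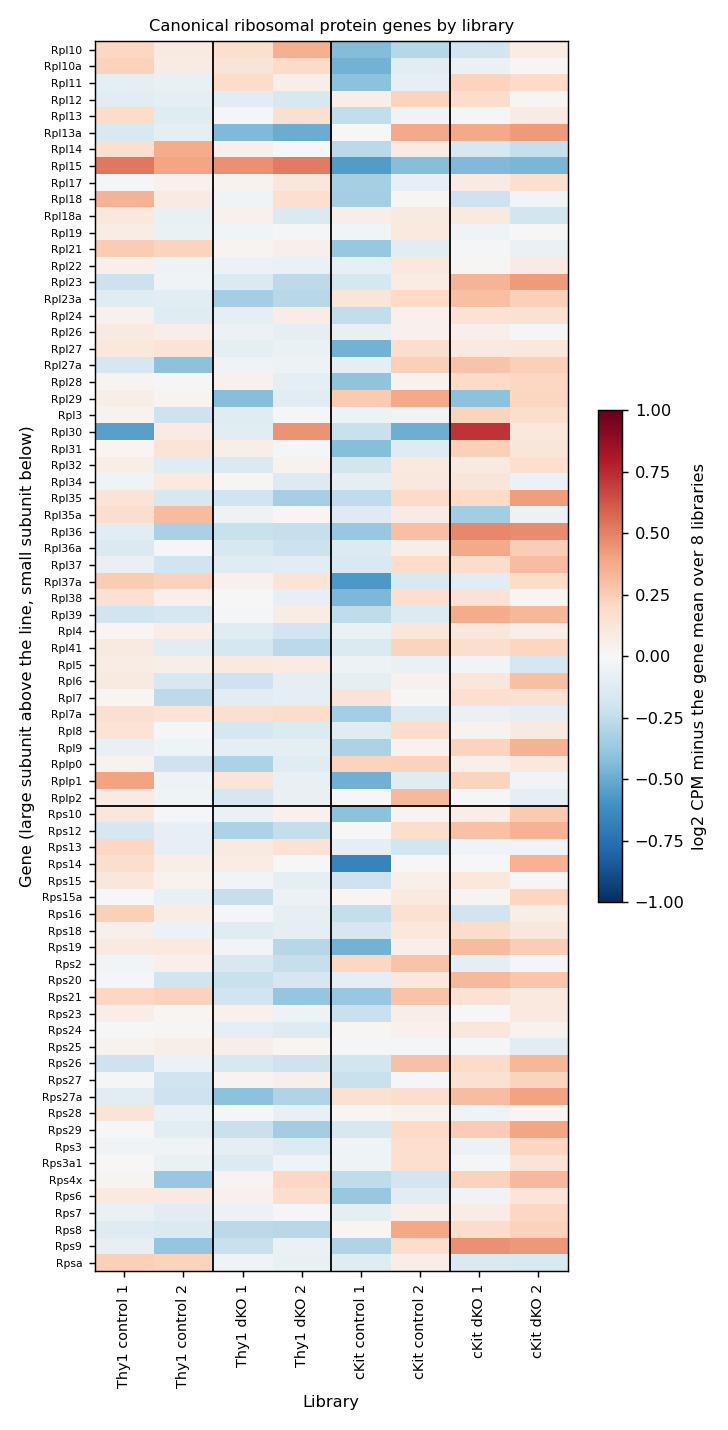
log2 CPM of 74 of the 77 canonical genes in each library, as the difference from the gene's mean over 8 libraries, from -1 (blue) to 1 (red). Rpl15 is high in the 4 Thy1 libraries and low in the 4 cKit libraries, and cKit control replicate 1 is mostly lower than replicate 2.

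Other genes of the translation machinery were read beside the ribosomal proteins, from lists chosen with earlier results of these data known. Of 87 ribosome biogenesis factors tested, 49 fell and 2 rose in cKit dKO, a share called of 58.6% beside 28.6% of all genes tested. The share was 45.5% among the 4809 genes in the level range of canonical genes other than Rpl30. The biogenesis factors had a median of -0.49 against 0.17 for canonical ribosomal proteins. Heatr1, a factor of ribosomal RNA transcription and processing, fell from 286 and 250 CPM to 77.2 and 86.0 (-1.72, edgeR adjusted p = 1.2e-06), and Mdn1, an ATPase that remodels large subunit precursors, from 929 and 903 to 298 and 317 (-1.57, edgeR adjusted p = 5.4e-07). The 2 that rose were Gnl3l (0.63) and Gltscr2 (0.52). Without cKit control replicate 1, 38 fell and 1 rose, and with germ cell scaling 0 fell and 75 rose. Of 14 RNA polymerase I genes 5 fell (35.7% called), among them the initiation factors Taf1c (-1.20) and Rrn3 (-0.67).

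The remaining lists are read against the same 28.6% of all genes called in cKit dKO. Of 42 initiation factors 13 fell and 1 rose (33.3% called), with Eif5a2 at -1.34, Eif1b at -1.13 and Eif4b, itself a TOP mRNA, at 0.44. Of 11 elongation and termination factors 5 fell and 1, Eef2 (0.26), rose (54.5% called). Of 18 other TOP mRNAs 3 rose and 3 fell (33.3% called), with Tpt1 at 0.47 and Eef1g at -0.34, and a median of 0.10. Of 76 mitochondrial ribosomal proteins, which belong to a separate ribosome, 12 fell, led by Mrps22 (-1.13), and 1 rose, Mrpl33 (0.70), a share called of 17.1%.

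In Thy1 dKO, where 0.624% of all genes tested passed, 2 genes of these lists did. Eif4g3 was higher (0.53, edgeR adjusted p = 0.046) and Mdn1 lower (-0.46, edgeR adjusted p = 0.042). In the test of the difference between dKO effects 11 of 87 biogenesis factors passed, all lower in cKit, and 0 canonical ribosomal proteins. The biogenesis share was 12.6%, against 5.92% of all genes tested (4.06% lower). Among the 4809 genes in the level range of canonical genes other than Rpl30 it was 11.7%. Between populations in control, 7 of 87 biogenesis factors were higher in cKit and 5 lower (13.8% called, against 19.7% of all genes tested). Of 42 initiation factors 3 were higher and 3 lower (14.3% called). Npm1, the nucleolar chaperone, was lower in cKit (-0.59) and Eif1ax too (-1.07), while Eif4g3 was higher (0.69).

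**Figure D5:**
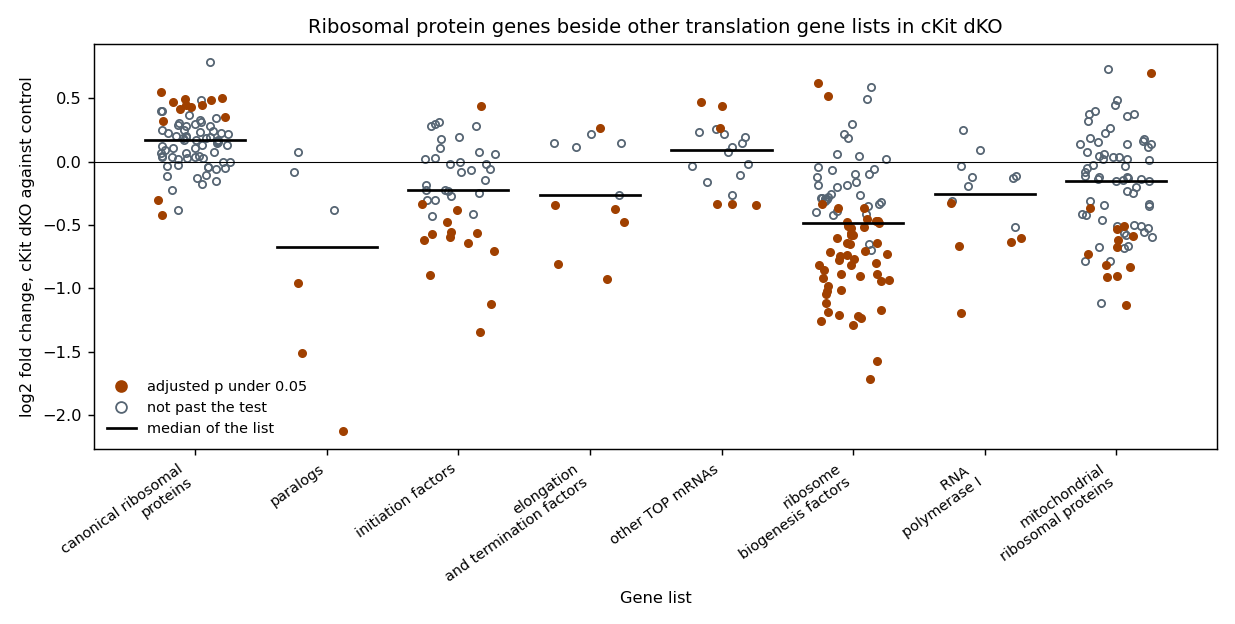
log2 fold change in cKit dKO against cKit control for the genes of 8 lists, with filled points for adjusted p under 0.05 and a line at the list's median. The canonical ribosomal proteins have a median of 0.17, and the ribosome biogenesis factors one of -0.49 with 49 of 87 lower.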

How the data were processed

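Deposited tables gave, for 26099 RefSeq transcript entries in mm10, read counts with no normalization and RPKM values computed by the authors per kilobase and library reads, per the file headers and values. Reads were aligned with STAR 2.4.2a, per the submitters' processing notes; the tool used for counting, strand handling and the treatment of multiply mapped reads are not given in the sources used here. RNA was amplified without molecular identifiers, per the labels' protocols. Entries were summed per symbol. Counts of all 8 libraries were fitted in edgeR 4.0.16 (R 4.3.3): filterByExpr by group, TMM, a mean for each group (4 residual degrees of freedom), glmQLFTest (two-sided), Benjamini-Hochberg adjustment over all 14907 genes, threshold 0.05. The fit was also run on simulated counts with a single dispersion for all genes and changed genes in cKit dKO only. That setting is simpler than these data and does not check the calls made here. Spread is pooled over groups. Alternatives were other scalings, DESeq2 1.42.0, limma 3.58.1 on log2(RPKM + 1) and log2(RPKM + 0.1), filters, a replicate block and leaving out libraries. The members and lists were chosen with earlier results of these data known.

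Named genes were the paralogs and their parents, the stalk, 5S particle and X-linked members, Rps6, Rps19, Rps27a, Rpl22, Rpl38, Rpsa, the 5 highest and 3 lowest by RPKM, and per comparison the 5 higher and 5 lower members (2 per direction in other lists) of largest change that passed 0.05, had non-overlapping groups and reached 3 in mean log2 CPM, with ribosomal protein genes outside the rule and Rn45s. Some genes that this rule names are not reported here, though they stay in the counts. Other members are named where a count is spelled out or where an exception is given, after their values were seen. Shared 50-base words were counted in GENCODE M21 transcripts. Same-numbered libraries were not paired by the labels.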

Additional observations from a re-analysis of the deposited data

Results flagged for a closer look

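The change of Rpl39l in dKO differed between the populations by -1.44 on the log2 scale (cKit minus Thy1), by the test of the difference itself. Its adjusted p was 0.049 in edgeR, and it reached 0.23 when 1 library was left out.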

How the results depend on the processing

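Over the single values named there were 4685 alternatives in all, of which 4209 stayed on the same side of the threshold, 179 lost a call and 265 gained one. The 4209 include any sign changes with neither value past the test. A further 32 changed sign with either value past the test, 30 of them with germ cell scaling and 2 on RPKM. Causes were not tested.

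Members higher and lower in cKit dKO (11 and 5 as reported) were 2 and 8 with library totals, 19 higher with RLE size factors, 20 higher with DESeq2, 80 and 0 with germ cell scaling, 6 higher with the highest entry per symbol, 0 and 17 on RPKM with either pseudocount, and 6 higher with only the 4 libraries compared. Without both control replicates 1, an alternative chosen after seeing the data, the canonical median was 0.056 in place of 0.173. DESeq2, the highest entry and the 4 libraries alone called 27.2%, 22.9% and 22.8% of all genes in cKit dKO. Members there were at 28.9%, 13.3% and 12%. In Thy1 dKO (0 and 0), 1 was lower with no filter (1.19%, against 2.86% of all genes). With only the 4 libraries compared, 4 were lower (4.82%, against 6.05%). For cKit against Thy1 in control (0 and 8), 1 was higher with library totals, DESeq2 or only the 4 libraries compared, 4 and 0 passed with germ cell scaling, 3 and 13 with no filter, 13 and 1 on RPKM + 1, and 12 and 1 on RPKM + 0.1. Without both control replicates 1 the canonical median of this comparison was 0.094 in place of -0.021. In dKO (20 and 5), 12 and 10 passed with library totals, 81 and 0 with germ cell scaling, and 12 higher with either RPKM pseudocount. The RPKM + 1 setting called 34.9% of all genes there and 22.9% of members. For the difference of dKO effects (0 and 1), 2 were lower with library totals, the 5 CPM filter or either RPKM pseudocount. With no filter 5 and 2 passed, with DESeq2 4 were higher, and with germ cell scaling 80 and 0 passed. With RLE size factors or the highest entry 0 were lower. The share of all genes called moved with the setting too. Germ cell scaling called 83.3% in cKit dKO, 18.7% and 80.7% for the populations in control and dKO, and 61.3% for the difference. Members there were at 96.4%, 4.82%, 97.6% and 96.4%. No filter called 24%, 17.1%, 28% and 7.56% in the same order, against 22.6%, 19%, 33.3% and 8.33% of members. For the difference, library totals called 7.63% and DESeq2 6.94%, against 2.41% and 6.02% of members.

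Leaving out 1 library gave 0 to 0 higher and 0 to 0 lower in Thy1 dKO, 1 to 32 and 2 to 6 in cKit dKO, 0 to 6 and 1 to 16 for the populations in control, 8 to 30 and 3 to 6 in dKO, and 0 to 19 and 0 to 1 for the difference. The log2 ratio of the members' summed share ran from -0.11 to -0.04, -0.07 to 0.06, -0.12 to 0.01 and -0.01 to 0.04 in the first 4 comparisons. On summed RPKM it was -0.19 in cKit dKO, 0.19 for the populations in control and 0.092 in dKO, and on summed TMM-scaled CPM 0.13 in cKit dKO and 0.15 for the populations in dKO.

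Only sign changes with either value past the test are listed here. With germ cell scaling, those in cKit dKO were Rpl10l 0.066, Rpl12 1.64, Rpl5 1.65, Rpl7l1 1.59, Rplp0 1.52, Rplp2 1.44, Rps2 1.36, Rps27l 1.25, Rps4y2 0.66 and Rpsa 1.54. For the populations in control they were Rpl31 0.078 and Rpl7a 0.03. For the populations in dKO they were Rpl10 1.44, Rpl10a 1.58, Rpl15 0.84, Rpl21 1.70, Rpl37a 1.70, Rpl39l 0.13, Rpl5 1.60, Rpl7a 1.53, Rps4y2 1.13, Rps6 1.69 and Rpsa 1.69. For the difference they were Rpl12 1.37, Rpl5 1.32, Rpl7l1 1.15, Rplp0 1.35, Rplp2 1.28, Rps2 1.27 and Rps27l 1.15. On RPKM with either pseudocount Rpl17 in cKit dKO was at -0.017.

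The labels give the groups the same replicate numbers, but same-numbered libraries did not deviate together (correlations -0.05 to 0.05). With the replicate block 13 members were higher and 4 lower in cKit dKO (20.5%, against 28.3% of all genes). For the difference 2 were lower (2.41%, against 6.2%). With 2 libraries per group, log2 changes of canonical genes had 95% intervals 0.41 to 1.55 wide in the 4 pairwise comparisons.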
